A study of Mus musculus with 9 samples.

Results

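Cholesterol and fatty acid synthesis genes were followed in primary osteoblasts from the calvaria (skull roof) of newborn mice. The 32 genes were chosen by name as sterol pathway enzymes (17), regulators of the SREBP system (6) and fatty acid synthesis enzymes (9), and every probe carrying one of these symbols was taken. The array table held 39 probes for 28 of the 32 genes, among 25697 probes in all. Hmgcs1, Mvk, Fdft1 and Acaca had no probe under these symbols and were not analysed here.

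Doxycycline (dox) is meant to switch on RUNX2, a master regulator of osteoblast differentiation, from a lentivirus that was present in every group, controls included. Treatment lasted 48 h, in medium without phenol red that held 20% serum stripped with charcoal, a step that removes steroid hormones and other lipophilic molecules. The 9 Illumina bead arrays comprised 2 of vehicle, 2 of dox (500 ng/ml), 3 of the oestrogen E2 (10 nM) and 2 of both agents at these doses, the last numbered 2 and 3 in the labels. Slide 1 carried the 4 arrays without E2 and slide 2 the 5 arrays with it. Dox is thus compared inside each slide, whereas E2 and the slide cannot be told apart. The labels do not state whether replicates are separate cultures or animals, so the tests rest on a spread between samples that could be technical.

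Animal cells make cholesterol from acetyl-CoA through the mevalonate pathway, squalene and lanosterol. The transcription factors SREBP-1 and SREBP-2 (genes Srebf1 and Srebf2) are held in the endoplasmic reticulum by SCAP and the INSIG proteins when sterols are plentiful, and are released to switch on lipid synthesis genes when sterols are scarce. SREBP-2 acts mainly on sterol genes and SREBP-1 mainly on fatty acid genes. Cells in lipid-poor serum depend on this system for the cholesterol and fatty acids of new membranes. The arrays do not show how poor in lipids the stripped serum used here was.

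Levels are given as log2 signals after background correction and quantile normalization. Each difference between groups is on the log2 scale and carries its standard error (SE). The limma tests were adjusted by the Benjamini-Hochberg method across 9490 genes. A probe entered the test when it was above background (detection p under 0.05) on at least 2 arrays, and a gene was represented by its brightest such probe. Of the 39 probes 34 passed this filter, and they covered 27 genes. Idi1, the isopentenyl diphosphate isomerase, was below background on all 9 arrays and was not tested. Each array detected 11554 to 12206 probes. Of the osteoblast markers, collagen genes Col1a1 and Col1a2, Sparc, Spp1, Sp7 and Alpl were above background on all 9 arrays, while Runx2, Ibsp and Postn were below background on all 9. The Runx2 probes therefore give no check of the induction, and whether they can read the viral transcript is not known. Fat cell markers were largely missing, with Adipoq, Fabp4, Plin1, Cidec, Cd36, Retn, Cfd and Lep below background on every array. Lpl and Pparg were above background on all 9 arrays and Cebpa on 1. Of the cartilage cell markers, Sox9, Acan, Comp and Col2a1 (14.32 to 14.67) were above background on all 9. Col9a1 and Col11a2 were so on at most 4, and Matn1 on 0. The markers therefore do not show a culture of osteoblasts alone.

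**Figure D1:**
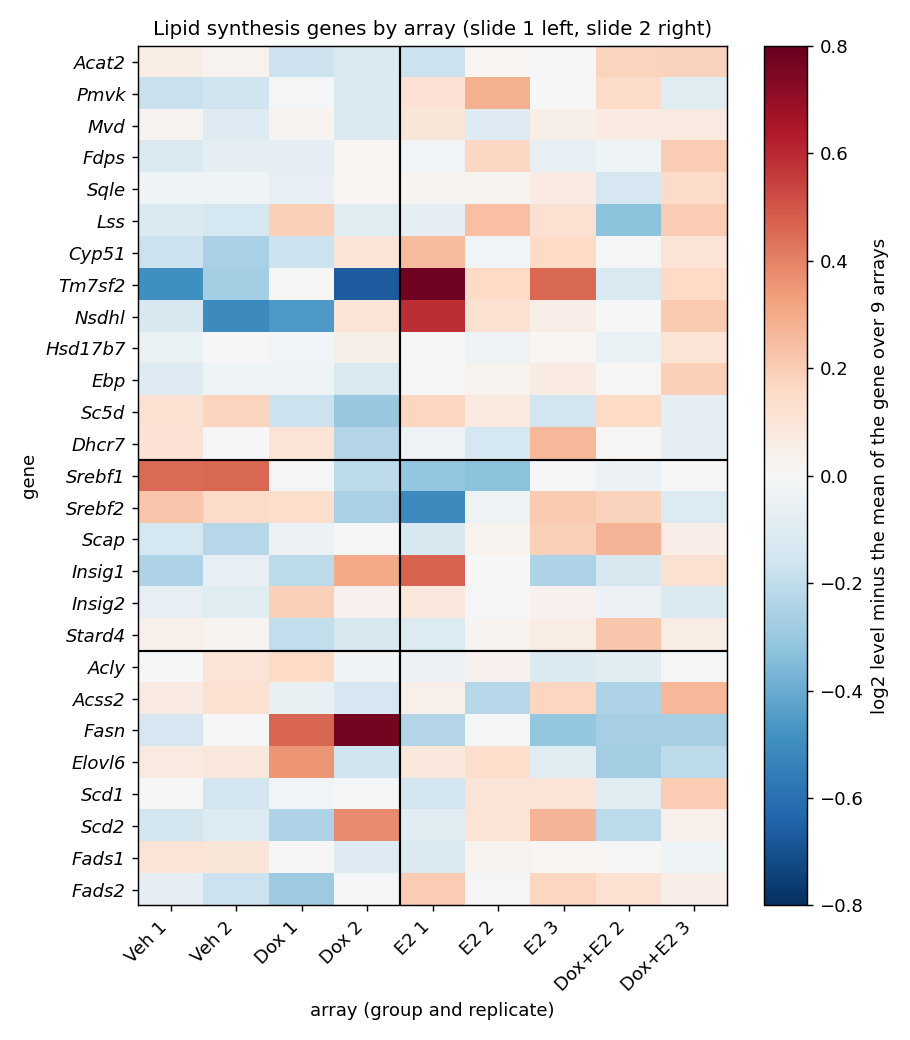
Levels of the 27 tested genes (rows, ordered as sterol enzymes, SREBP regulators and fatty acid synthesis) on the 9 arrays (columns), as the log2 level minus the gene's own mean. Srebf1 is highest on the 2 vehicle arrays, Fasn on the 2 dox arrays, and Nsdhl and Tm7sf2 are highest on E2 replicate 1.

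None of the 27 genes passed the threshold for a difference with dox. Over all arrays, with slide as a block, 0 of the 27 genes passed in the comparison of the 4 dox arrays with the 5 others, against 0.116% of all genes tested, and 0 had an unadjusted p under 0.05, against 5.85%. The dox arrays lay wholly above the others for 0 of the 27 and wholly below for 0, against 0.843% and 0.653% of all genes. The median difference was -0.01, with 12 positive and 15 negative values, against a median of 0 and 48.5% positive over all genes. Differences ran from -0.22 ± 0.20 for Tm7sf2, a sterol C14 reductase, to 0.26 ± 0.18 for Fasn, the fatty acid synthase. The 95% intervals of 25 genes lay inside a 1.5-fold change in either direction; Tm7sf2 and Fasn, both close to background, had wider ones. On the same arrays 3 of the 7 tested osteoblast markers passed, all higher with dox. They were Sp7 (0.68 ± 0.08, adjusted p = 2.64e-05), Alpl (0.85 ± 0.13, adjusted p = 0.000727) and Bglap2 (1.39 ± 0.18, adjusted p = 3.78e-05). Bglap2 was above background on the 4 dox arrays only (6.36 to 6.75), and read 5.04 to 5.37 on the 5 others. It entered the test only through the arrays where it was high, so its difference is measured against undetected signal. Spp1 (0.01 ± 0.06), Sparc (0.00 ± 0.04), Col1a2 (0.14 ± 0.06) and Col1a1 (-0.13 ± 0.04) did not pass.

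Several enzymes had differences with a small SE. Fdps, which makes farnesyl diphosphate, read 12.49 and 12.53 in vehicle, 12.53 and 12.62 in dox, 12.58, 12.77 and 12.54 in E2, and 12.57 and 12.81 in the combination. Dox and other arrays overlapped, and the dox difference was 0.06 ± 0.06. Acly, which supplies cytosolic acetyl-CoA from citrate, differed by 0.01 ± 0.05, and Sqle, the squalene epoxidase, by -0.01 ± 0.06. The stearoyl-CoA desaturases Scd1 and Scd2 differed by 0.05 ± 0.07 and -0.01 ± 0.10. Fads1, the delta-5 desaturase of polyunsaturated fatty acids, read 13.27 and 13.26 in vehicle, 13.16 and 13.06 in dox, 13.05, 13.19 and 13.18 in E2, and 13.17 and 13.13 in the combination, a dox difference of -0.07 ± 0.05 (adjusted p = 0.914).

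**Figure D2:**
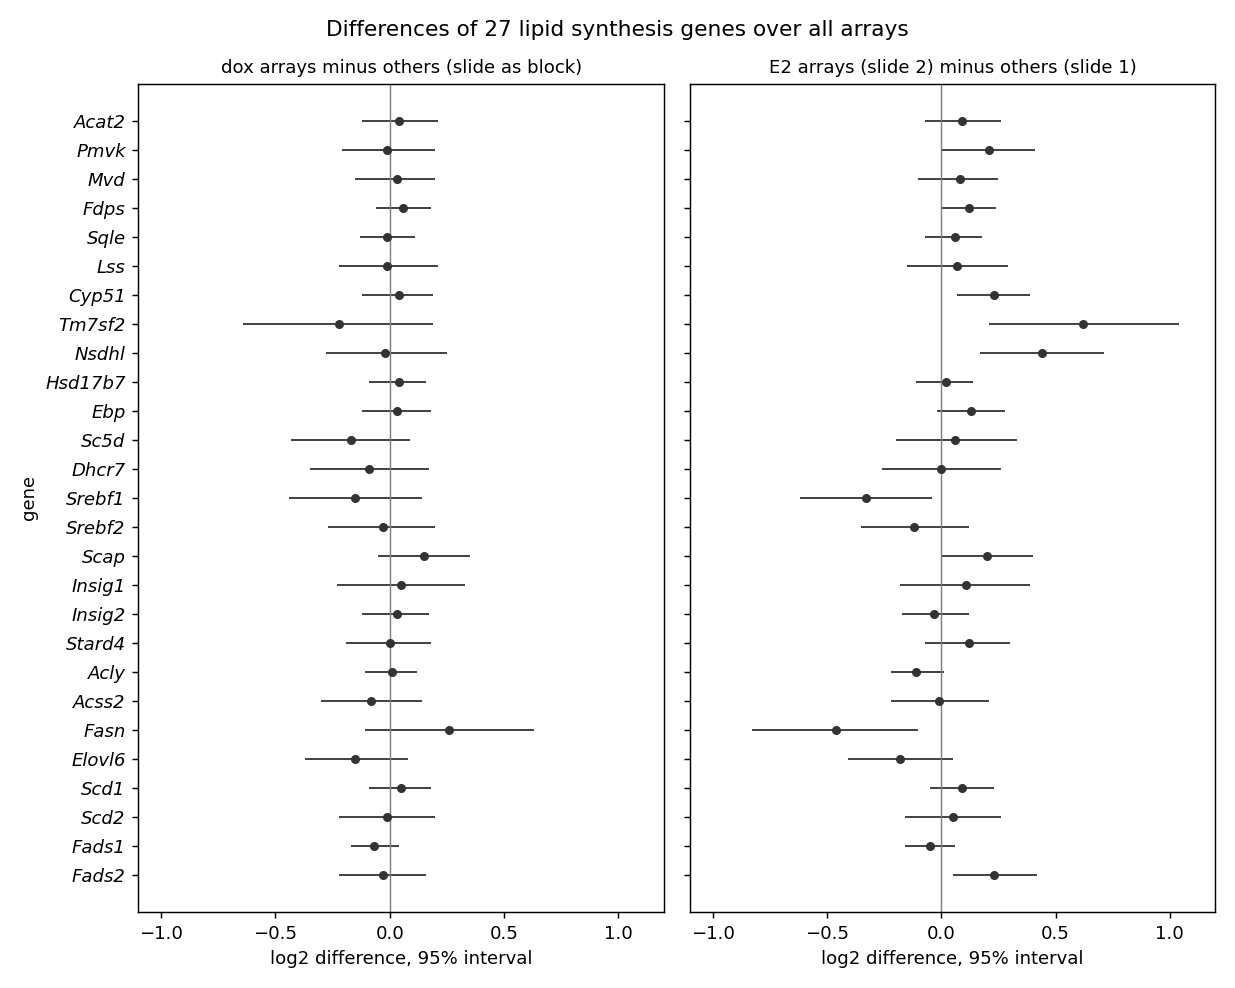
Log2 differences with 95% intervals of the 27 genes, dox arrays minus the others (left) and arrays with E2 on slide 2 minus arrays without on slide 1 (right). On the left every interval includes 0; on the right, at an unadjusted p under 0.05, 7 genes lie above 0, and Fasn and Srebf1 lie below it.

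Among the genes with the lowest p for dox were Scap, Sc5d and Elovl6, and each had dox arrays that overlapped the others. Scap, the SREBP escort protein, read 8.21 and 8.12 with vehicle and 8.30 and 8.35 with dox, and without dox but with E2 8.22, 8.38 and 8.54 against 8.62 and 8.40 with both (0.15 ± 0.10, adjusted p = 0.896). Sc5d, the lathosterol desaturase, read 7.36 and 7.42 with vehicle and 7.07 and 6.94 with dox, but 7.41, 7.32 and 7.09 with E2 against 7.40 and 7.16 with dox plus E2 (-0.17 ± 0.13, adjusted p = 0.908). Its dox arrays lay below the vehicle arrays, and with E2 the groups overlapped. Elovl6, which lengthens palmitate to stearate, read 8.22 and 8.24 in vehicle, 8.50 and 7.99 in dox, 8.23, 8.29 and 8.05 in E2, and 7.87 and 7.94 in the combination (-0.15 ± 0.11, adjusted p = 0.91). Dox plus E2 arrays were the lowest of the 4 groups for Elovl6.

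Without E2, dox against vehicle called 0 of the 27 genes, against 0.0316% of all genes, and 5 had an unadjusted p under 0.05, against 6.77%. The dox arrays lay wholly above vehicle for 6 genes and wholly below for 7, against 16.9% and 21.2% of all genes. Fasn read 5.86 and 6.00 with vehicle and 6.46 and 6.76 with dox, a difference of 0.68 ± 0.25 (adjusted p = 0.633), which was 0.28 in the authors' scaled table. Its dox arrays were the highest of the 9, although the probe was close to background and was not detected on 1 of the 2 dox plus E2 arrays. Srebf1 differed by -0.57 ± 0.18 (adjusted p = 0.552), Sc5d by -0.39 ± 0.18 (adjusted p = 0.72) and Fads1 by -0.15 ± 0.07 (adjusted p = 0.72). Insig2, an endoplasmic reticulum anchor of SCAP, differed by 0.20 ± 0.09 (adjusted p = 0.713).

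With E2 present, dox plus E2 against E2 likewise called 0 of 27, against 0.0738% of all genes, and 1 gene had an unadjusted p under 0.05, against 6.23%. Arrays lay wholly above E2 for 2 genes and wholly below for 3, against 10.7% and 10.1% of all genes. The gene was Acat2, the cytosolic acetoacetyl-CoA thiolase that opens the mevalonate pathway, with 9.78, 9.97 and 9.94 in E2 and 10.13 and 10.14 in dox plus E2 (0.24 ± 0.09, adjusted p = 0.674). The dox plus E2 arrays were the highest of the 9 for Acat2. Fasn, which stood out without E2, read 5.76, 5.98 and 5.69 with E2 and 5.73 and 5.73 with both (-0.08 ± 0.22, adjusted p = 0.98).

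**Figure D3:**
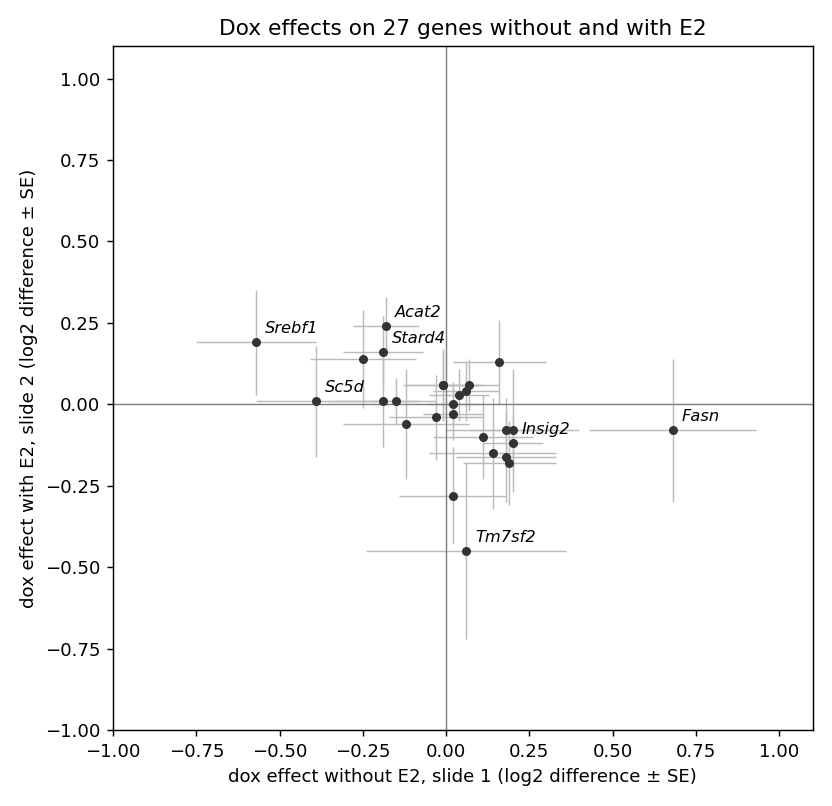
Dox effects on the 27 genes without E2 (x axis, n = 2 and 2) and with E2 (y axis, n = 2 and 3), as log2 differences ± SE. Fasn and Srebf1 lie far from 0 on the x axis and near 0.2 or less on the y axis.

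Subtracting the dox effect seen without E2 from that seen with E2 asks whether the oestrogen altered the response to dox. For these genes 0 of 27 passed, against 0% of all genes, and 5 had an unadjusted p under 0.05, against 6.87% of all genes. Srebf1 had a difference of 0.76 ± 0.24 (95% interval 0.26 to 1.26, adjusted p = 0.638) and Fasn of -0.76 ± 0.33 (95% interval -1.45 to -0.07, adjusted p = 0.691). Arrays lay wholly on one side without E2 and wholly on the other with E2 for 3 of the 27 genes, against 4.05% of all genes. Acat2 differed by 0.42 ± 0.14, Stard4, a cytosolic sterol carrier, by 0.35 ± 0.17, and Insig2 by -0.31 ± 0.12, with adjusted p from 0.638 to 0.719. The intervals of 12 of the 27 genes lay inside a 1.5-fold difference. Those of the other genes reached past it, so a difference of that size is not excluded for them. Here too E2 cannot be told apart from the slide.

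Srebf1 was the 1 gene of the 27 past the threshold in any of the comparisons, and it was lower in E2 than in vehicle. Its probe ILMN_2792089 (gene on chromosome 11) read 7.75 and 7.76 in vehicle, 7.29 and 7.09 in dox, 6.99, 6.97 and 7.28 in E2, and 7.25 and 7.30 in the combination. The 2 vehicle arrays were above all 7 others, which ran from 6.97 to 7.30. The group means were 7.76 ± 0.01 (SD) in vehicle, 7.19 ± 0.14 in dox, 7.08 ± 0.17 in E2, and 7.27 ± 0.04 in the combination. E2 was 1.60-fold lower than vehicle (log2 difference -0.68 ± 0.16, n = 3 and 2, adjusted p = 0.0349). Of the 27 genes 1 passed here, lower, against 0.832% of all genes lower and 0.622% higher, or 1.45% in all. Without adjustment 5 genes had a p under 0.05, against 15.6%. The E2 arrays lay wholly above vehicle for 12 genes and wholly below for 3, against 14.7% and 19.6% of all genes. In dox plus E2 against dox Srebf1 differed by 0.08 ± 0.18 (adjusted p = 0.909). The dox and E2 differences of Srebf1 share the 2 vehicle arrays and are not independent.

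The Srebf1 call was lost without either vehicle array (adjusted p = 0.283 and 0.285) and without E2 replicate 1 (0.096) or 2 (0.116), with differences from -0.62 to -0.68. It was also lost with no detection filter (0.12), without the intensity trend in the variance (0.13) and with median in place of quantile scaling (0.063), which was tried after the data were seen. With the authors' scaled table the call was kept at a smaller difference of -0.41 (adjusted p = 0.0284). A second Srebf1 probe, ILMN_2696876, was below background on all 9 arrays.

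**Figure D4:**
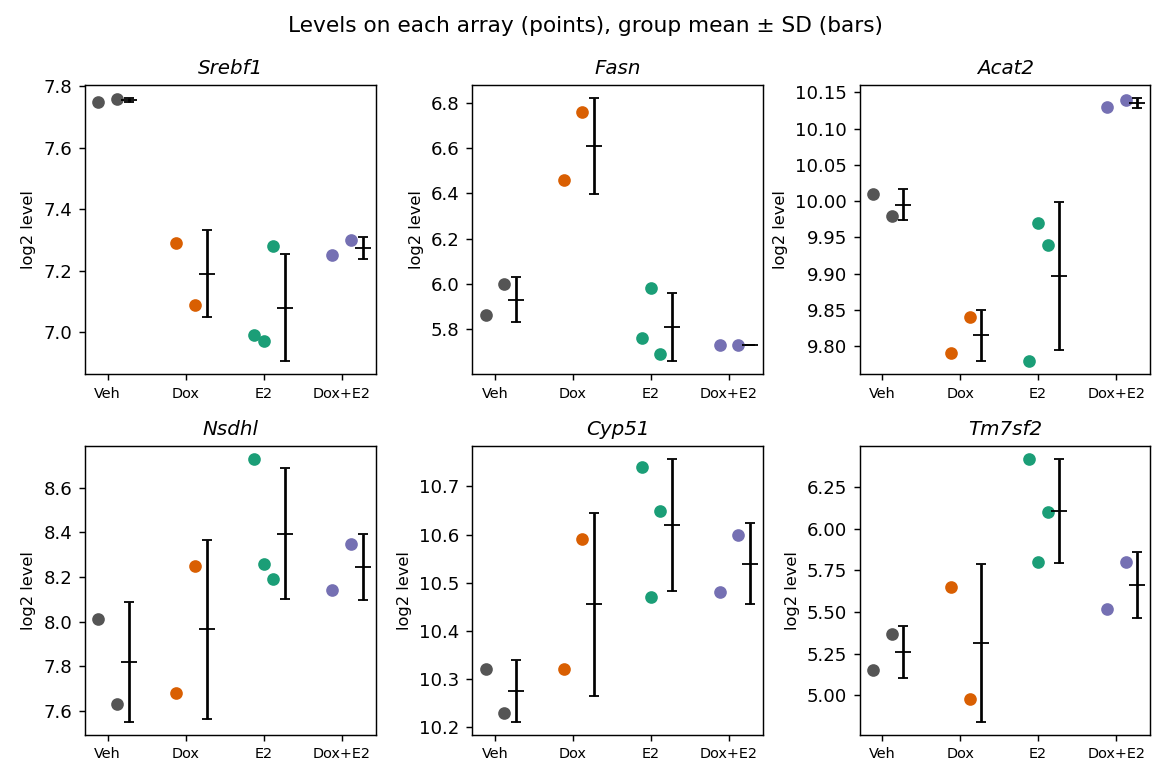
Log2 levels of 6 genes on each array (points) with the group mean ± SD (bars; n = 2, 2, 3 and 2). Vehicle arrays are the highest for Srebf1, dox arrays for Fasn and dox plus E2 arrays for Acat2, while Nsdhl, Cyp51 and Tm7sf2 have their highest values among the E2 arrays.

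Other genes moved between the same groups, and by more. Of 7 tested heart and slow muscle markers, 5 were lower in E2 than in vehicle and 0 higher. The summed signal of the muscle list was 2480 and 2155 on the vehicle arrays, 3186 and 2178 with dox, 683.6, 699.1 and 947.2 with E2, and 612.4 and 542.4 with dox plus E2. The muscle markers Tnni1, Myh7 and Pln were below background throughout. Of 13 tested immediate early genes 9 were lower in E2 than in vehicle, and their summed signal was 39210 and 40270 in vehicle, 41040 and 23780 in dox, 19590 to 20890 in E2, and 21020 and 22440 in the combination. In bulk samples fewer cells of a type and less RNA per cell cannot be told apart. On dox replicates 1 and 2 Srebf1 read 7.29 and 7.09, beside muscle sums of 3186 and 2178 and immediate early sums of 41040 and 23780. The part of the muscle and immediate early genes in the Srebf1 difference was not tested.

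The sterol enzymes leaned to higher values on the slide 2 arrays, which hold all E2 samples, but no enzyme passed the threshold. With dox as a term, 12 of the 13 tested enzymes had a positive difference between the 5 E2 arrays and the 4 others, with Dhcr7 at 0.00 ± 0.13 as the exception, against 47.5% of all genes. The median was 0.09, against -0.01 over all genes. Of all 27 genes 0 passed, against 2.94% of all genes, and 7 had positive and 2 negative differences at an unadjusted p under 0.05, against 8.15% and 10.5% of all genes. Ebp, the sterol isomerase, was the 1 gene with all slide 2 arrays above all slide 1 arrays (0.13 ± 0.07, adjusted p = 0.335), and 0 were wholly below, against 2.58% and 3.85% of all genes. The positive count of enzymes was 11 to 13 of 13 with any 1 array left out. The enzymes were read on the same arrays, so their signs are not independent observations. A lean of this size also arose inside 1 group. Of the 13 enzymes 10 were higher and 3 lower on dox plus E2 replicate 3 than on replicate 2, with a median difference of 0.16. In the other pairs of arrays from 1 group the median ran from -0.09 to 0.04.

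Nsdhl, Cyp51 and Tm7sf2, which act after lanosterol is made, had the lowest p among the sterol enzymes. Nsdhl, which removes the C4 carbons of the sterol ring, read 8.01 and 7.63 in vehicle, 7.68 and 8.25 in dox, 8.73, 8.26 and 8.19 in E2, and 8.14 and 8.35 in the combination (0.44 ± 0.13, adjusted p = 0.0608). Slide 1 and slide 2 arrays overlapped through dox replicate 2. Cyp51, the lanosterol 14-alpha demethylase, read 10.32 and 10.23 in vehicle, 10.32 and 10.59 in dox, 10.74, 10.47 and 10.65 in E2, and 10.48 and 10.60 in the combination (0.23 ± 0.08, adjusted p = 0.0908). Again dox replicate 2 was the slide 1 array among the slide 2 values.

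Tm7sf2 read 5.15 and 5.37 in vehicle, 5.65 and 4.98 in dox, 6.42, 5.80 and 6.10 in E2, and 5.52 and 5.80 in the combination (0.62 ± 0.20, adjusted p = 0.086). It was above background on 3 of 3 E2 arrays, 0 of 2 vehicle arrays and 1 of 2 in each dox group. With each vehicle array set at the higher of its lowest detected signal and the probe's own, the E2 mean was 1.31-fold above vehicle. This ratio carries no sampling error and is not a lower limit. In E2 against vehicle the Tm7sf2 difference was 0.85 ± 0.27 (95% interval 0.29 to 1.41), and the test gave adjusted p = 0.108. These values moved with single arrays in both directions. Without dox replicate 2, Nsdhl (0.57, adjusted p = 0.00836) and Cyp51 (0.30, adjusted p = 0.0196) passed, and without vehicle replicate 2 they had 0.33 (adjusted p = 0.299) and 0.18 (adjusted p = 0.344). Tm7sf2 passed without dox replicate 1 (0.79, adjusted p = 0.0382) and had adjusted p = 0.282 without vehicle replicate 1. In the authors' scaled table the Tm7sf2 difference was 0.24 (adjusted p = 0.0784). In E2 against vehicle, Cyp51 had 0.35 ± 0.10 (adjusted p = 0.0661) and Nsdhl 0.57 ± 0.17 (adjusted p = 0.0936), and both passed when either dox array was left out of the shared spread estimate (adjusted p = 0.0399 to 0.049). Without vehicle replicate 2 Cyp51 had 0.30 (adjusted p = 0.412) and Nsdhl 0.38 (adjusted p = 0.566), and without E2 replicate 1 they had 0.29 (adjusted p = 0.202) and 0.40 (adjusted p = 0.335).

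The promoters of these 3 genes and of Srebf1 are shown because they are the members with the lowest p on the slide 2 side and the 1 gene that passed. Each window holds the 250 bases before the transcription start, from RefSeq on GRCm38.p6, written on the gene's strand. Capitals mark CCAAT, the box bound by NF-Y, and GGGCGG, the box bound by Sp1, on either strand; both factors are known to act with SREBPs. RefSeq lists 3 Srebf1 windows, and the one printed is that with both boxes; which start the array probe reads is not known.
Nsdhl (chrX:72918271-72918520, plus strand): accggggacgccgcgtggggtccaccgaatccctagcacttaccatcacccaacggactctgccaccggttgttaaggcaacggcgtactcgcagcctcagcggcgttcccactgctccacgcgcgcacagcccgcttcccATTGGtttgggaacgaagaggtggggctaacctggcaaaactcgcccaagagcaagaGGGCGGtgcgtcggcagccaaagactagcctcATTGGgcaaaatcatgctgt
Cyp51 (chr5:4104698-4104947, minus strand): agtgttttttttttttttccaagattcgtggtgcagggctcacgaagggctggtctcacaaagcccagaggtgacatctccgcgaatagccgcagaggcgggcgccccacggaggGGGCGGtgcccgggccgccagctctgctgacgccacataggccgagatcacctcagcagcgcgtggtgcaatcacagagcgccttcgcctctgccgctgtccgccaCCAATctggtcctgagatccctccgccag
Tm7sf2 (chr19:6067851-6068100, minus strand): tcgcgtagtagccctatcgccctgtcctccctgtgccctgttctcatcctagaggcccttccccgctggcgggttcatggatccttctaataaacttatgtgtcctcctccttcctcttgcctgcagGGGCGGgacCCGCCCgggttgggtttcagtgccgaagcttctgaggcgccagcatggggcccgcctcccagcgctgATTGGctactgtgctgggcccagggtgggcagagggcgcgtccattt
Srebf1 (chr11:60210472-60210721, minus strand): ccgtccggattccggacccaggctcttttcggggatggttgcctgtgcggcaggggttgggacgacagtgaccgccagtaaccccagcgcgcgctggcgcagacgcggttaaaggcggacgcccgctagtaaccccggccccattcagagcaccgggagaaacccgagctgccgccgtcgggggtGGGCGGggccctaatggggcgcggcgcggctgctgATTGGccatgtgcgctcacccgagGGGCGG

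Both boxes lie in the windows of Nsdhl, Cyp51 and Tm7sf2, while the Srebf1 window was picked for holding them and the other 2 Srebf1 windows hold 1 kind each. The matches do not overlap each other. Of the 32 genes 25 had a window in the RefSeq table. CCAAT was found in 19 of the 25, against 37.5% of 27025 genes with a window and 41.6% of the tested genes, and GGGCGG in 21 of 25, against 35.4% and 64.9%. The sterol response element TCACNCCAC was searched on both strands and matched 1 of 25, Hmgcs1, against 1.22% of all genes. The E-box CACGTG was found in 5 of 25, against 6.86% of all genes and 10.1% of the tested genes. A match is a string of letters and not a measured binding site, and no match says only that these letters are not in this window.

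Probes of the same gene did not always agree, which limits the values above. Nsdhl had 4 kept probes: 3 of them had slide 2 differences of 0.44 ± 0.13, 0.37 ± 0.12 and 0.38 ± 0.13, and the weakest, ILMN_2958207, had 0.01 ± 0.17. For Sqle the brighter probe ILMN_2737163 had 0.06 ± 0.06, from 11.77, 11.77, 11.74 and 11.82 on slide 1 and 11.83, 11.83, 11.87, 11.67 and 11.96 on slide 2. The second Sqle probe, ILMN_2600348, read 9.69, 9.51, 9.52 and 9.74 on slide 1 and 10.19, 10.08, 9.81, 9.81 and 10.12 on slide 2, without overlap. Tested as its own feature among 12912 probes, it passed with 0.38 ± 0.09 (adjusted p = 0.0175).

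**Figure D5:**
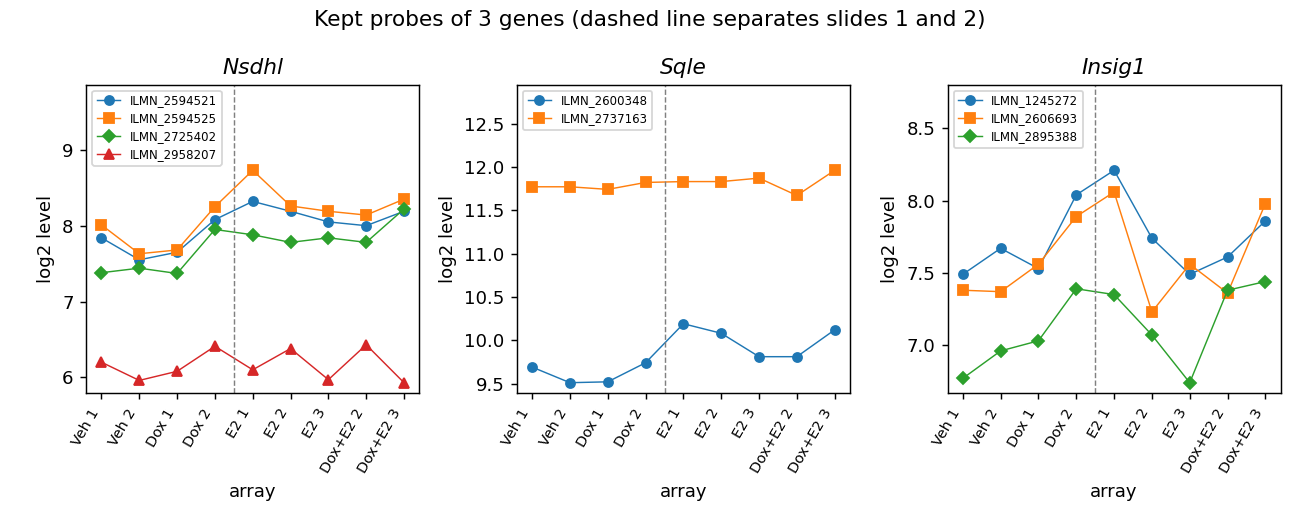
Log2 levels of the kept probes of Nsdhl (4), Sqle (2) and Insig1 (3) on the 9 arrays; lines join the values of a probe and the dashed line separates slides 1 and 2. The Insig1 probes share a high value on dox replicate 2 and E2 replicate 1, and the 2 Sqle probes differ on slide 2.

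Insig1, itself a well-known SREBP target, had no difference past the threshold and a wide spread within dox and within E2. It read 7.49 and 7.67 in vehicle, 7.53 and 8.04 in dox, 8.21, 7.74 and 7.49 in E2, and 7.61 and 7.86 in the combination. Over the dox arrays this probe, ILMN_1245272, had 0.05 ± 0.14, while ILMN_2606693 had 0.19 ± 0.15 and ILMN_2895388 had 0.35 ± 0.14. Tested as its own feature, ILMN_2895388 did not pass (adjusted p = 0.859). The 3 kept probes of Insig1 were each higher on dox replicate 2 than on dox replicate 1, and each higher on E2 replicate 1 than on either other E2 array. Nsdhl (8.25 against 7.68), Cyp51 (10.59 against 10.32) and Scd2 (10.53 against 9.90) were also higher on dox replicate 2 than on replicate 1, while Srebf2 (9.54 against 9.94) and Tm7sf2 (4.98 against 5.65) were lower. Over the sterol enzymes 6 were higher and 7 lower on dox replicate 2. Dox replicate 2 is also the array of slide 1 with a low immediate early signal. Srebf2 had its lowest value, 9.29, on E2 replicate 1, against 9.54 to 10.02 on the 8 other arrays.

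The fatty acid genes were of mixed sign, and none passed. On slide 2 against slide 1 the 8 tested genes had 3 positive and 5 negative differences, with a median of -0.03. Fasn was at -0.46 ± 0.18 (adjusted p = 0.155), from 5.86, 6.00, 6.46 and 6.76 on slide 1 and 5.69 to 5.98 on slide 2. Fads2, the delta-6 desaturase, went the other way with 8.49, 8.39, 8.27 and 8.55 on slide 1 and 8.76, 8.55, 8.73, 8.68 and 8.61 on slide 2 (0.23 ± 0.09, adjusted p = 0.161). Acss2, which makes acetyl-CoA from acetate, was at -0.01 ± 0.11. The 6 regulators split evenly, with Scap at 0.20 ± 0.10 and Srebf2 at -0.12 ± 0.11.

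In dox plus E2 against dox, the other comparison across slides, 0 of 27 genes passed, against 0.232% of all genes, and 5 had an unadjusted p under 0.05, against 10.8%. Arrays lay wholly above dox for 7 genes and wholly below for 3, against 19.3% and 20.4%. Acat2 had 0.32 ± 0.10 (adjusted p = 0.214), Stard4 0.31 ± 0.12 (adjusted p = 0.349) and Fasn -0.88 ± 0.25 (adjusted p = 0.148). In the authors' scaled table Fasn was at -0.35 here, at -0.31 in the difference of the dox effects and at -0.18 over the E2 arrays. Of the 13 sterol enzymes 12 were positive, against 49.7% of all genes, and the median was 0.11. With 1 array left out the count ran from 9 (without dox plus E2 replicate 3) to 12 and the median from 0.07 (without dox replicate 2) to 0.16. This comparison shares no array with E2 against vehicle, in which 10 of 13 were positive against 46.9% of all genes, with a median of 0.10 (9 to 11 positive with 1 array left out). Both set slide 2 against slide 1, and in both the signs of the enzymes are not independent.

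In 4 lists of related lipid genes outside the 32, no gene passed over the dox or over the E2 arrays. Over the dox arrays 0 passed of 14 tested other sterol genes (median 0.06) and of 3 efflux and LXR genes. The same held for 21 other lipogenic genes (median 0.01) and 15 fatty acid oxidation genes (median 0.03). In this order 12, 2, 11 and 9 genes were positive and 2, 1, 10 and 6 negative, against 48.5% positive over all genes. Over the E2 arrays 0 of these passed either, with medians of 0.04, -0.08, 0.04 and -0.01. There 8, 0, 13 and 7 were positive and 6, 3, 8 and 8 negative, against 47.5% positive over all genes. The other sterol genes thus leaned to positive values more over the dox arrays than over the E2 arrays. Among the other sterol genes, Erg28 had 0.21 (adjusted p = 0.0826) and Msmo1, which works beside Nsdhl on the C4 carbons, 0.15 (adjusted p = 0.205). In E2 against vehicle 1 of the lipogenic genes passed, Hacd3, a dehydratase of fatty acid elongation, at -0.28 (adjusted p = 0.0455), named after its value was seen. Of the adipocyte markers 2 of 11 were tested: Lpl, the lipoprotein lipase, was lower over the E2 arrays (-0.99 ± 0.13, adjusted p = 4.73e-05) and Pparg was at 0.16 ± 0.07 (adjusted p = 0.236).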

How the data were processed

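Per the labels, total RNA of 9 samples was turned into biotinylated cRNA for Illumina arrays. The deposited table holds an average bead signal, a linear intensity with no scaling between arrays, and a detection p-value for each probe, per the file headers; GenomeStudio 2011.1 made it, per the submitters' processing notes. Array medians were 131.8 to 149.9 for slide 1 and 158 to 172.1 for slide 2. The authors also deposited scaled intensities (linear, array medians 152.7 to 153). How they were scaled, and the probes' genome build, were not stated in what was used.

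The neqc function of limma 3.58.1 (R 4.3.3) corrected the background by normexp, using the detection p-values, added an offset of 16 and gave quantile normalized log2 levels. The offset shrinks changes of dim probes, and quantile scaling hides a change of most genes in 1 direction. Gene symbols of the table were updated through RefSeq (20733 current, 3872 by synonym, 1092 kept). One fit with a mean per group, and one with slide and dox as terms, used an intensity trend and two-sided moderated tests; a call is an adjusted p under 0.05. The fits were checked on simulated data. Per-array values are given for Srebf1 and for the 6 genes with the lowest p over the dox and over the E2 arrays; others were added after their values were seen. The members, lists and tests were chosen with earlier results of these data known. Depth has no counterpart here; the number of arrays limits precision. Alternatives were another offset, the authors' table, filters, probe rules, no trend, left-out arrays and a replicate block. Figures used matplotlib 3.10.9 in Python 3.11.15.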

Additional observations from a re-analysis of the deposited data

Results flagged for a closer look

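In 3 genes the dox arrays lay wholly on one side of their controls without E2 and wholly on the other side with E2, as in 4.05% of all 9490 genes. Acat2 was below vehicle with dox and above E2 with dox plus E2, a difference of the dox effects of 0.42 ± 0.14 (adjusted p = 0.638). Stard4 went the same way, with 8.89 and 8.87 in vehicle, 8.65 and 8.72 in dox, 8.74, 8.87 and 8.91 in E2, and 9.07 and 8.91 in dox plus E2, the last above the E2 arrays by less than the rounding (0.35 ± 0.17, adjusted p = 0.719). Insig2 went the opposite way, with 10.64 and 10.61 in vehicle, 10.90 and 10.74 in dox, 10.79, 10.69 and 10.74 in E2, and 10.66 and 10.59 in dox plus E2 (-0.31 ± 0.12, adjusted p = 0.68). A second Insig2 probe, ILMN_1216822, did not switch sides: it read 10.36 and 10.53 in vehicle, 10.69 and 10.82 in dox, and with E2 its arrays overlapped, at 10.82, 10.59 and 10.37 in E2 and 10.63 and 10.59 in dox plus E2. The test of the difference passed in 0 of the 3. Dox arrays lay wholly above vehicle in 16.9% of all tested genes and wholly below in 21.2%, and dox plus E2 arrays wholly above E2 in 10.7% and wholly below in 10.1%.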

How the results depend on the processing

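For dox, whether without E2, with E2, over all arrays or as the difference of its effects, the count of genes past the threshold was 0 in each alternative run. In E2 against vehicle, 1 passed (Srebf1), against 0 with the replicate block, 0 with no detection filter, 0 with no intensity trend, 2 with median scaling (Cyp51 and Nsdhl) and 0 to 3 with 1 array left out. Over all E2 arrays 0 passed, against 0 to 2 with 1 array left out, 2 without dox replicate 2 and E2 replicate 1 together (Cyp51 and Nsdhl), and 7 with median scaling. In dox plus E2 against dox 0 passed, against 2 with median scaling and 1 without those 2 arrays together (Elovl6). Median scaling and the paired omission were added after the data were seen. In the run with every probe as its own feature, only the brightest probe of each gene was counted. The second Sqle probe, which passed over the E2 arrays in that run (0.38, adjusted p = 0.0175), is therefore not in these counts. Median scaling put the median of all genes at 0.09 over the E2 arrays (-0.01 with quantile scaling) and at 0.12 in dox plus E2 against dox, and gave 970 calls over the E2 arrays (881 higher, 89 lower) against 279 (108 higher, 171 lower). The median of the sterol enzymes over the E2 arrays was then 0.19, and 0.09 with quantile scaling, so it lay about as far above that of all genes under both. With the replicate block their positive count was 9 of 13 in dox plus E2 against dox; over the E2 arrays it was 9 of 13 with the block and 11 to 13 under the other alternatives that tested 13. Same-numbered arrays did not deviate together (correlations from -0.11 to 0.03). With so few arrays per group this cannot settle whether the numbers pair samples, and the labels do not state it. The block left Srebf1 at -0.74 with adjusted p = 0.0673. Where an omission left 1 array in a group, it was taken to vary like the others. The cause of these changes was not tested. Probes near background, Fasn and Tm7sf2, limit what can be said of them.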
